A study of Mus musculus with 2 samples.

Results

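C1q-low monocyte-like cells were a population of adipose tissue leukocytes that lay in a cluster rich in the monocyte transcripts Chil3, Plac8 and Thbs1 and that held few or no transcripts of the complement component C1q. They were chosen by cluster and by C1q count, as the cells of cluster 3 in the authors' deposited cluster table that had fewer than 5 unique molecular identifiers (UMIs, tags that count captured transcript molecules) of C1qa, C1qb and C1qc together. By this rule 702 of the 10159 cells in the series belonged to the population, 584 in the chow library and 118 in the ketogenic library. Droplet single-cell RNA sequencing had been applied to CD45+ cells, the leukocytes, of adipose tissue taken from C57BL/6 wild-type mice. Intravenous labelling had been used to separate cells resident in the tissue from those still inside vessels. One group of mice had eaten normal chow and the other a ketogenic diet for 1 week, and each diet was represented by 1 library. The sample titles call both groups adult. The number, sex and exact age of the mice behind each library are not given in the sources used here.

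Classical monocytes leave the bone marrow through the chemokine receptor Ccr2, circulate with a high surface level of Ly6C, and enter tissues where they can become macrophages or dendritic-like cells. As they do so they lose Ly6c2 and Plac8 and can gain MHC class II, complement and scavenger receptor transcripts, while a separate branch in blood becomes the patrolling nonclassical monocyte, which carries Ace and Treml4. In adipose tissue, monocytes feed the macrophage pool, and the signals they meet, among them type I and type II interferons and the type 2 cytokines IL-4 and IL-13, set which transcripts they carry.

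With 1 library per diet no difference between diets has a replicate check, and no p-value was computed. Square brackets hold 95% intervals that cover counting error only: exact Poisson intervals for levels, exact conditional ones for ratios and exact binomial ones for shares. Levels are in CPM, the UMIs of a gene scaled to the summed UMIs of a group of cells. The C1q-low monocyte-like cells held 3298175 UMIs in the chow library, with a median of 5367 per cell (range 1728 to 15350), and 699533 in the ketogenic library, with a median of 5507 (range 2072 to 16816). Their median number of detected genes was 1704.5 and 1749 per cell, and their median mitochondrial share was 2.04% and 1.84%. The 2 libraries shared 41 cell barcodes. Of the C1q-low cells, 7 had a barcode that was also found in the other library, and none was a C1q-low cell in both.

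Most of the cells below the C1q threshold held no C1q transcript at all. In the chow library 442 of the 584 C1q-low cells (75.7%) had 0 C1q UMIs, 94 had 1 and 48 had 2 to 4. In the ketogenic library the counts were 106 of 118 (89.8%), 4 and 8. Just inside the threshold, 8 chow cells and 3 ketogenic cells had exactly 4 UMIs, and just outside it 10 and 3 cells had exactly 5. The cells of cluster 3 at or above the threshold, called C1q-high here, had a median of 20 C1q UMIs under chow and 19 under the ketogenic diet. These values chose the cells and are given as a description.

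The first question was how many of the tissue's leukocytes were C1q-low monocyte-like cells on each diet. Under chow they made up 584 of 4458 clustered cells, a share of 13.1% [12.1–14.1]. Under the ketogenic diet they made up 118 of 5559, a share of 2.12% [1.76–2.54]. The share was thus 6.17-fold lower [5.06–7.59] in the ketogenic library, a difference far outside counting error. The C1q-high cells of the same cluster went from 275 cells (6.17%) to 27 cells (0.486%), a 12.7-fold difference [8.54–19.6]. Within cluster 3 the C1q-low cells were 68.0% [64.8–71.1] in the chow library and 81.4% [74.1–87.4] in the ketogenic one. These 2 binomial intervals do not overlap. The conditional interval of the ratio of the shares, 1.20 [0.974–1.46], includes 1. That interval treats the cells as counts of rare events, so it is too wide for shares this large.

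The size of the difference depended on the cells it was measured against. Among the myeloid clusters 3, 5, 6, 8 and 12 pooled, the C1q-low cells were 30.2% of the chow and 12.4% of the ketogenic library, a ratio of 0.409 [0.333–0.499]. Among clusters 3 and 8 alone the direction turned, with a ratio of 1.28 [1.05–1.57], and the cells of cluster 8 also went from 362 to 47. Of the 10 genes that most set the C1q-low cells apart from other cells, 3 (Ccl24, Ccl2 and Ccl7) differed at least 2-fold between the libraries, so a difference in the cluster's border and a difference in cell number cannot be told apart by the cluster alone. A count that did not use the cluster number, of cells with at least 1 UMI each of Chil3 and Plac8 and fewer than 5 of C1q, gave 290 chow cells (6.51%) and 69 ketogenic cells (1.24%), a ratio of 0.191 [0.145–0.249]. Of those cells, 87.2% and 82.6% were C1q-low cells of cluster 3.

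**Figure D1:**
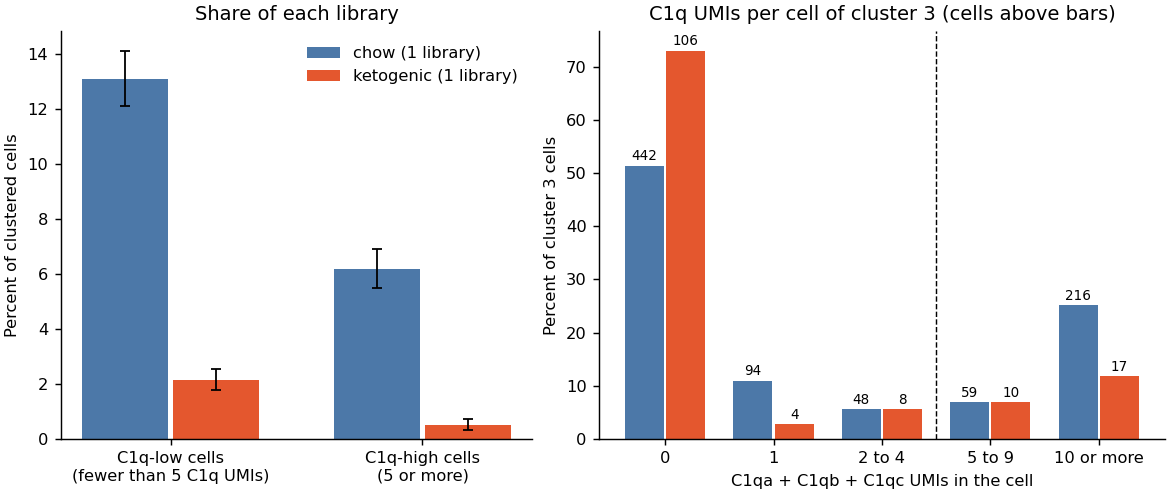
Left, the percentage of clustered cells in each library that were C1q-low or C1q-high cells of cluster 3, with exact binomial 95% intervals as error bars, and right, the percentage of cluster 3 cells in each library by C1q UMIs per cell, with the number of cells above each bar and the threshold as a dashed line. The C1q-low bar stands at 13.1% for chow and 2.12% for the ketogenic diet, and cells with 0 C1q UMIs are the largest class in both libraries.

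The label of the population was checked against its 5 markers. Chil3, a chitinase-like lectin of monocytes and alternatively activated macrophages, stood at 716 CPM [688–746] in the chow cells and 1082 CPM [1006–1162] in the ketogenic cells, against 11.1 and 1.56 CPM in all clustered cells outside cluster 3. Plac8, a small cysteine-rich protein abundant in circulating monocytes, stood at 1745 and 3104 CPM against 148 and 165 CPM outside. Thbs1, the matrix and platelet protein thrombospondin 1, stood at 488 and 440 CPM against 18.8 and 2.44 CPM. These 3 transcripts were higher than outside cluster 3 in both libraries. The C1q-high cells of the same cluster held them as well, with Chil3 at 408 and 263 CPM, Thbs1 at 321 and 217 CPM and Plac8 at 294 and 1545 CPM. Ccr2, the receptor for the monocyte chemoattractant Ccl2, stood at 907 and 935 CPM against 449 and 405 CPM, a smaller gap, and was at 951 and 1090 CPM in C1q-high cells. Ly6c2, which encodes the Ly6C surface antigen and can share reads with the near-identical Ly6c1, did not mark the cells in either library, with 474 and 821 CPM against 519 and 842 CPM outside cluster 3. By cell, at least 3 of the 5 markers were found in 451 chow cells (77.2%) and 94 ketogenic cells (79.7%), while 6 and 3 cells held none.

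Shares of cells with a marker UMI were set beside those in cluster 0. All 5 ILC2 markers (ILC2 are group 2 innate lymphoid cells) were at least 4.96-fold higher in cluster 0 than in other cells, and its cells should lack monocyte transcripts. After every cell had been thinned to 1000 UMIs, 47.8% of chow and 67.8% of ketogenic C1q-low cells had a Plac8 UMI, against 5.39% and 3.28% of cluster 0 cells. Without thinning the shares were 70.7% and 84.7% against 13.7% and 9.24%, at median depths of 2610.5 and 3133 UMIs in cluster 0. For Chil3 the thinned shares were 29.97% and 34.7% against 1.52% and 0.153%, and the unthinned ones 56.0% and 51.7% against 3.63% and 0.305%. For Ly6c2 they were 25.5% and 37.3% against 5.27% and 6.26% thinned, and 55.8% and 68.6% against 13.3% and 18.5% unthinned. These 3 and Thbs1 (30.8% and 26.3% against 1.76% and 0.458% thinned) were above the share in cluster 0. Over all clustered cells outside cluster 3, however, the thinned Ly6c2 shares were 25.95% and 31.9%. Under chow Ly6c2 was thus no more frequent in the C1q-low cells than outside cluster 3. Ccr2, which cluster 0 also holds, was closer, at 57.02% and 55.9% against 40.5% and 48.2% thinned, and at 94.7% and 90.7% against 70.6% and 83.7% unthinned.

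Markers of other cell types were also summed. The 8 markers of cDC2 or monocyte-derived dendritic cells had the largest sum among lists of non-monocyte types under both diets, 419 and 342 CPM, with Zbtb46 at 0 in the ketogenic cells. The 5 plasmacytoid dendritic cell markers summed to 189 and 194 CPM and the 5 ILC2 markers to 159 and 103 CPM. Of the 8 neutrophil markers, Ly6g and Ngp were at 0 in both libraries, and the list summed to 392 CPM in chow cells and 62.9 CPM in ketogenic cells. The 10 macrophage markers summed to 372 and 220 CPM, with Lyve1 at 0 in both libraries, against 4402 and 4412 CPM in C1q-high cells. This gap was fixed in advance, since the C1q genes that drew the threshold made up most of the C1q-high sum. Mrc1, which the threshold did not use, stood at 155 and 34.3 CPM, against 216 and 82.7 CPM in C1q-high cells. The 7 T cell markers summed to 116 and 193 CPM and the 5 natural killer markers to 71.6 and 157 CPM. Thus the summed markers of T and natural killer cells were higher, and those of neutrophils and macrophages lower, in the ketogenic cells. The lower neutrophil sum came from S100a8 (201 and 11.4 CPM) and S100a9 (141 and 1.43 CPM) alone. The lower macrophage sum came mostly from Mrc1. The 4 B cell markers summed to 13.6 and 22.9 CPM, and all 5 mast cell and basophil markers were at 0 in both libraries.

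**Figure D2:**
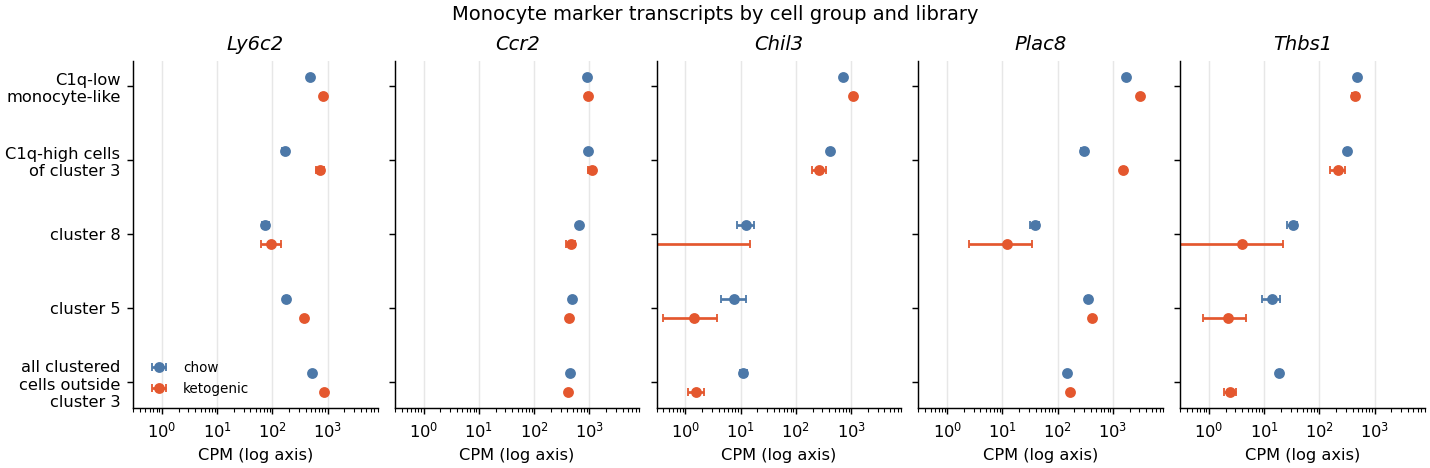
Level of the 5 marker transcripts (columns) in 5 groups of cells (rows), in CPM on a log axis, with 1 point per library and exact Poisson 95% intervals. Chil3, Plac8 and Thbs1 are highest in the C1q-low cells, for example Plac8 at 1745 CPM (chow) and 3104 CPM (ketogenic), while Ly6c2 is as high outside cluster 3, and Chil3 has an interval without a point where ketogenic cells of cluster 8 held 0 UMIs.

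Against all other clustered cells, the 10 leading transcripts of the C1q-low cells by the ratio of CPM plus 20 were Chil3, Ccl24, Thbs1, Ccl2, Lst1, Plac8, Hp, Apoe, Ccl7 and Sirpb1c, from 18.6-fold for Chil3 to 9.05-fold for Sirpb1c. This ranking and the next ones pooled the cells of both libraries, and 584 of the 702 C1q-low cells came from chow. All 10 were higher than in the other cells of the same library under both diets, but at different levels, with Ccl24 at 1530 against 143 CPM under chow and at 104 against 5.25 CPM under the ketogenic diet. Hp encodes haptoglobin, which binds free haemoglobin, Apoe encodes the lipid carrier apolipoprotein E, and Ccl2 and Ccl7 encode ligands of Ccr2. The transcripts that most set the C1q-low cells above the C1q-high cells were Plac8 (4.58-fold), Gsr (3.42-fold), Slpi (3.35-fold), Hp (3.19-fold), S100a9, Mgst1, Msrb1, Dmkn, Mnda and Vcan. Gsr, the glutathione reductase, and Mgst1, a microsomal glutathione transferase, belong to glutathione metabolism, and Slpi encodes a leukocyte protease inhibitor. Those that most set them below were Retnla (4.04-fold), Pf4 (3.66-fold), Mgl2 (2.83-fold), Cd81, Jun, Ltc4s, Hspa1a, Egr1, Tmem37 and Ms4a7. The pooled Retnla value rested mostly on chow, with 1554 CPM in the C1q-low against 5914 CPM in the C1q-high cells, while the ketogenic levels were 182 and 299.6 CPM. Tmem37 ran the other way in the ketogenic library, at 12.9 CPM in the C1q-low and 5.17 CPM in the C1q-high cells. Since the cluster and the threshold chose the cells, these contrasts describe them and carry no test.

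The C1q-low cells were not uniform in their MHC class II transcripts, which present peptides to CD4 T cells. H2-Aa, H2-Ab1, H2-Eb1 and Cd74 together made up a median of 2.47% of a cell's UMIs under chow and 1.01% under the ketogenic diet, with a range from 0.0978% to 11.4% and from 0.0226% to 11.04%. The 3 bands below, chosen after these values were seen, describe that range: below 1%, from 1% to 4%, and 4% or more of a cell's UMIs. Under chow the bands held 205, 165 and 214 cells, and under the ketogenic diet 59, 26 and 33. The low band held 35.1% [31.2–39.1] of the C1q-low cells under chow and 50% [40.7–59.3] under the ketogenic diet. Near the boundaries, 43 chow and 6 ketogenic cells lay within 0.25 percentage points of 1%, and 25 and 1 within 0.25 of 4%.

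From the low to the high band, transcripts of circulating monocytes were lower in both libraries. Ly6c2 stood at 981, 305 and 209 CPM in the low, middle and high bands of the chow library, and at 1146, 532 and 468 CPM in those of the ketogenic library. Plac8 stood at 3547, 1405 and 609 CPM under chow and at 3989, 2185 and 2250 CPM under the ketogenic diet. In the low band the libraries differed little in these transcripts, whereas in the high band both were higher in the ketogenic cells. H2-DMa, a peptide-loading chaperone that was not used to draw the bands, went the other way, from 290 to 1170 CPM under chow and from 246 to 1127 CPM under the ketogenic diet. Pltp, the phospholipid transfer protein, went from 81.3 to 386 CPM and from 31.5 to 234 CPM. Ccr2 varied less, between 807 and 984 CPM under chow and between 845 and 1133 CPM under the ketogenic diet.

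Ace and Treml4, which mark nonclassical monocytes, were more frequent in the low band under chow, while Nr4a1, another transcript of that branch, was lowest there. Nr4a1 stood at 486, 654 and 636 CPM from the low to the high band under chow and at 387, 380 and 488 CPM in the ketogenic bands. Cx3cr1 and Eno3, also of that branch, were highest in the middle band under chow, Eno3 on 8, 10 and 6 UMIs. In the ketogenic bands Eno3 fell from 57.3 to 25.3 and 0 CPM, while Cx3cr1 was again highest in the middle band. Ace (angiotensin-converting enzyme) or Treml4, a receptor of patrolling monocytes, was found in 24.4% of the low-band, 14.5% of the middle-band and 6.54% of the high-band chow cells. In the ketogenic library the shares were 33.9% [22.1–47.4], 30.8% [14.3–51.8] and 15.2% [5.11–31.9]. The intervals of the 3 ketogenic bands overlap, with 59, 26 and 33 cells behind them. Of the 95 low-band chow cells with at least 3 Ly6c2 UMIs, 21 also held Ace or Treml4, and of the 36 such ketogenic cells 10 did.

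**Figure D3:**
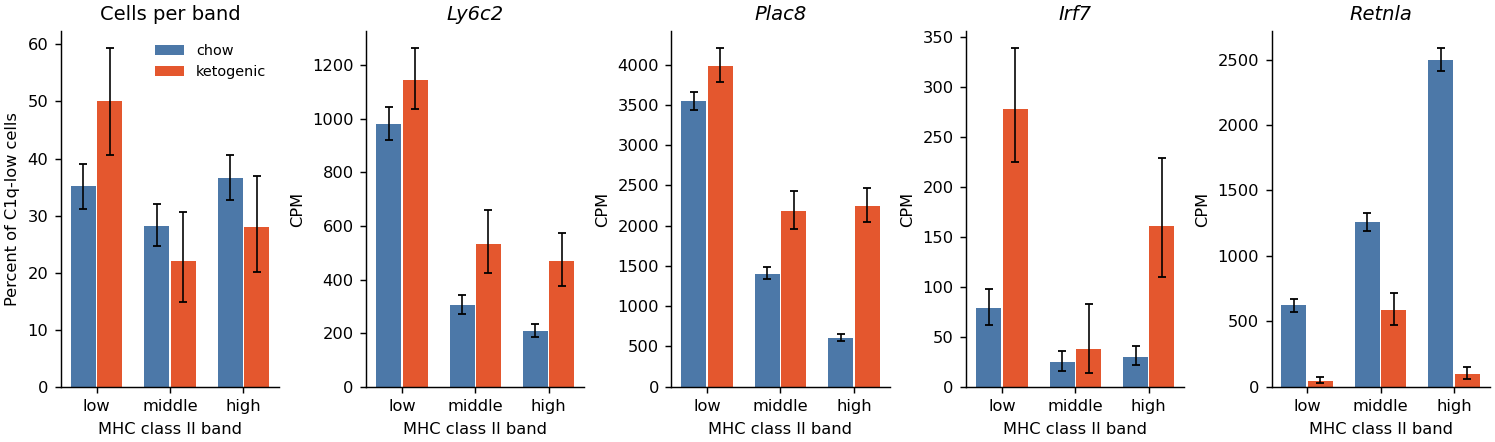
Left, the percentage of C1q-low cells in each MHC class II band per library, with exact binomial 95% intervals, and in the other panels Ly6c2, Plac8, Irf7 and Retnla in each band in CPM with exact Poisson 95% intervals, 1 bar per library. Ly6c2 and Plac8 step down from the low to the high band under chow, from 981 to 209 CPM and from 3547 to 609 CPM, and Retnla is lower in every ketogenic band than in the chow band of the same name.

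The next question was which transcripts differed with the diet inside the C1q-low cells. Of 3847 genes with at least 100 UMIs, 72 (1.87%) were at least 2-fold higher and 83 (2.16%) at least 2-fold lower in the ketogenic cells, and the median log2 ratio (ketogenic over chow, 0.5 added to each count) was 0.06. The central 90% of these genes lay between −0.73 and 0.76. The 10 highest were Ly6i, Irf7, Ass1, Gbp2, Ccl12, Ms4a4c, Rtp4, Ly6a, Apobec3 and Ifi47, from 10.7-fold to 3.11-fold higher. Of these, 0 remained among the 10 highest with no filter on UMIs, 3 with a minimum of 200 UMIs, 5 with a minimum of 50 or with every cell weighted alike, and 6 without cells that held lymphoid marker UMIs. Of the 10 lowest, 5 remained with no filter and 6 to 10 under each other alternative. The lowest included S100a9, Gm26870, S100a8, Ccl24, Ltc4s, Retnla, Cxcl3, Egr1 and Mgl2, from 98.6-fold to 6.07-fold lower. Irf7, Gbp2, Ms4a4c, Rtp4, Ly6a and Ifi47 among the highest are known to be induced by interferons, and Ccl24, Retnla and Mgl2 among the lowest are induced by IL-4 and IL-13 in macrophages.

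Irf7 (chromosome 7, 141262706 to 141266481, minus strand, GRCm38), the transcription factor that amplifies type I interferon production, had 142 UMIs (43.1 CPM [36.3–50.7]) in the chow cells and 134 UMIs (192 CPM [160–227]) in the ketogenic cells. It was 4.45-fold higher [3.49–5.67], a log2 ratio of 2.15. The UMIs came from 76 of 584 chow cells (13.01%) and 33 of 118 ketogenic cells (28.0%), against 2.34% and 5.04% of cluster 0 cells, and thinned shares were 3.77% and 10.2% against 0.937% and 1.60%. Cells with at least 3 Irf7 UMIs were 11 of 584 (1.88%) and 12 of 118 (10.2%). By band, Irf7 stood at 78.3, 24.4 and 29.9 CPM under chow and at 278, 38.01 and 161 CPM under the ketogenic diet, so its level differed in the low and high bands while the middle-band intervals overlapped. In the ketogenic high band 17 of 31 UMIs came from 1 cell, and without it the level there was 77.3 CPM [42.2–130].

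Ms4a4c (chromosome 19, 11404770 to 11427246, plus strand), a tetraspan membrane protein of monocytes that interferon induces, had more UMIs than any other of the 10 highest. Its level was 177 CPM [163–192] in the chow library and 612 CPM [555–673] in the ketogenic one, 3.46-fold higher [3.04–3.92]. It was found in 42.0% of chow and 66.9% of ketogenic cells, against 2.46% and 2.29% of cluster 0 cells. Ly6i (chromosome 15, 74979534 to 74983430, minus strand), a member of the Ly6 surface antigen family with near-identical neighbours, had 43 UMIs in 31 chow cells and 98 in 24 ketogenic cells, a log2 ratio of 3.42. Of the 98 UMIs 37 came from 1 cell, and without that cell the log2 ratio was 2.74. Ccl12, a Ccr2 ligand, rested on single cells in both libraries, with 35 of 69 and 40 of 52 UMIs in 1 cell each. Without the ketogenic cell that held the most UMIs its log2 ratio was −0.24, and without the top cell of each library 0.77, against 1.83 with all cells. Ass1, argininosuccinate synthase of the citrulline cycle, was spread over 65 chow and 31 ketogenic cells with at most 7 UMIs in a cell, at 25.5 and 107 CPM. In cluster 0, Ass1 was at 40.4 and 86.0 CPM, a log2 ratio of 1.09 against 2.07 in the C1q-low cells. Ly6a, another surface antigen of the Ly6 family, was at 33.96 and 109 CPM in the C1q-low cells (1.68), with 26 of its 76 ketogenic UMIs in 1 cell, and at 758 and 913 CPM in cluster 0. Its log2 ratio was 1.14 without cells that held lymphoid marker UMIs and 1.08 without its top cell.

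**Figure D4:**
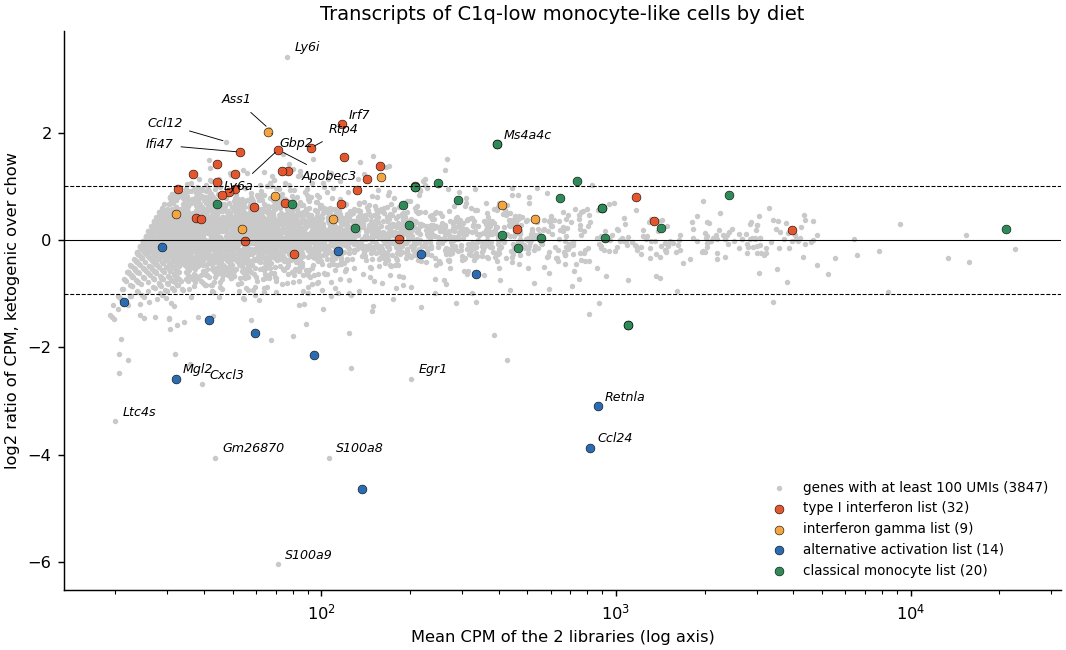
Log2 ratio of CPM, ketogenic over chow, in C1q-low cells against the mean CPM of the 2 libraries (log axis), with 1 point per gene for 3847 genes with at least 100 UMIs, coloured for 4 gene lists, with dashed lines at a 2-fold difference and names on the highest and lowest genes given in the text. Type I interferon genes such as Irf7 at 2.15 lie mostly above 0, and alternative activation genes such as Ccl24 at −3.86 mostly below.

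The type I interferon list held 53 genes with at least 10 UMIs. In the ketogenic cells 24 of them (45.3%) were at least 2-fold higher and 0 were 2-fold lower, with a median log2 ratio of 0.95 and 49 of 53 above 0. Among all 9337 genes with at least 10 UMIs, 6.51% were 2-fold higher, 55.4% lay above 0 and the median was 0.07; these shares, with 6.80% for 2-fold lower genes, apply to each list count over the C1q-low cells. Isg15, a ubiquitin-like modifier, stood at 87.9 and 229 CPM, a log2 ratio of 1.38. Zbp1, a sensor of Z-form nucleic acids, stood at 60.6 and 177 CPM (1.55), and Phf11d at 14.9 and 61.5 CPM (2.05). Ifit3, an antiviral tetratricopeptide protein, was at 16.1 and 40.03 CPM (1.33) and Rsad2, which encodes viperin, at 30.6 and 71.5 CPM (1.23). The 3 members with the most UMIs differed less, Ifitm3 with a log2 ratio of 0.18, Ifi27l2a with 0.36 and Ly6e with 0.81. Bst2 (0.01), Cxcl10 (−0.02) and Trim30a (−0.26) were near or below 0.

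The same list was higher in the ketogenic C1q-high cells, where 29 of 46 genes were 2-fold higher with a median of 1.43, against 12.7% of all genes there. In cluster 5, 5 of 51 were 2-fold higher (all genes 5.90%) with a median of 0.25, and in cluster 0, 2 of 43 (all genes 3.61%) with a median of −0.05. In cluster 8 the list lay on the other side, with 3 of 39 genes 2-fold higher (all genes 6.87%), 10 lower (25.6%, all genes 13.2%) and a median of −0.30. These differences between cell groups were not tested. By band, 19 of 52, 17 of 41 and 15 of 50 genes were 2-fold higher in the low, middle and high bands, with medians of 0.83, 0.88 and 0.79, while 6.91%, 9.86% and 10.99% of all genes were. The list's share of a cell's UMIs had a median of 0.738% in chow cells and 0.865% in ketogenic ones, and a 90th percentile of 1.39% and 2.24%, so the upper tail of cells differed more than the middle. When every cell was given the same weight, 24.5% of the list was 2-fold higher, and when the MHC class II bands were given the same weight, 32.1%. T and natural killer cell markers were also higher in these cells, as given above, and their part in this result was not tested; without the 106 chow and 31 ketogenic cells that held at least 3 lymphoid marker UMIs the share was 37.7%.

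The interferon gamma list, of genes that respond to type II interferon or carry its receptor, held 22 measured genes, of which 9 (40.9%, all genes 6.51%) were 2-fold higher and 1 lower (4.55%, all genes 6.80%), with a median of 0.81. Gbp2, a guanylate-binding GTPase of cell-autonomous defence, stood at 26.4 and 106 CPM, 4.01-fold higher [2.90–5.53]. Ifngr2, a chain of the interferon gamma receptor, stood at 97.6 and 220 CPM (1.18), and its partner Ifngr1 at 460 and 600 CPM (0.39). Fcgr1, the high-affinity IgG receptor, stood at 139 and 277 CPM, and the immunoproteasome subunit Psmb8 at 319 and 500 CPM (0.65). Cxcl9 had 8 and 21 UMIs and Gbp4 had 13 and 0. The C1q-high cells had a median of 1.02, cluster 5 one of 0.20 and cluster 8 one of 0.12, and in cluster 8, 4 of 18 genes (22.2%, all genes 6.87%) were 2-fold higher.

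Promoter sequence was examined because many of these genes differed together, using the RefSeq windows of GRCm38.p6 from 250 bases before to 50 bases after each start. The letters GAAANNGAAA, the core of the interferon-stimulated response element that interferon-activated factors bind, were searched on both strands, and 1131 of 32851 windows (3.44%) held them. Among type I interferon genes at least 2-fold higher in the ketogenic cells, 16 of 24 had a window, and 8 of their 17 windows held the letters. Among those under 2-fold, 13 of 27 windows did, so the letters were as frequent in list genes that differed little. The stretches below are shown because they belong to interferon genes that were at least 2-fold higher, with the matching letters of either strand in capitals. Each lies just upstream of the gene on its own strand, 5′ to 3′: Isg15 at chr4:156200835-156200936 (minus strand, 3 overlapping matches, the last ending 56 bases before the start), Ifit3 at chr19:34583333-34583456 (plus, 2 matches, 112 bases), Rsad2 at chr12:26456523-26456612 (minus, 110 bases), Oas3 at chr5:120777685-120777774 (minus, 65 bases) and, from the interferon gamma list, Igtp at chr11:58199482-58199555 (plus, 24 bases).
Isg15: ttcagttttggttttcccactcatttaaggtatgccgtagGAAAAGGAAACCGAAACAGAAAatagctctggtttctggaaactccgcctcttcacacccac
Ifit3: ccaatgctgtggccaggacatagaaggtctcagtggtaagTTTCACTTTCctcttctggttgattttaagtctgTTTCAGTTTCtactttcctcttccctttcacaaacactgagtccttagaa
Rsad2: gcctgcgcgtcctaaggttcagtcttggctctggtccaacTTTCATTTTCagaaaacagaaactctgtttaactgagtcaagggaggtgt
Oas3: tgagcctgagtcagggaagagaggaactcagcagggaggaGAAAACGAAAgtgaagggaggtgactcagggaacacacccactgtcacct
Igtp: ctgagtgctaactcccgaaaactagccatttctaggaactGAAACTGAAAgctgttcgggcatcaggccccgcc

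The alternative activation list, of genes that IL-4 and IL-13 induce in macrophages or that mark that state, went the other way. Of 18 measured genes 11 (61.1%) were at least 2-fold lower in the ketogenic cells and 0 were 2-fold higher, with a median log2 ratio of −1.54. Among all genes with at least 10 UMIs, 6.80% were 2-fold lower. Ccl24, the eosinophil chemoattractant eotaxin 2, stood at 1530 CPM [1488–1572] and 104 CPM [81.8–131], 14.7-fold lower [11.6–18.7]. Retnla, the secreted resistin-like molecule RELMα, stood at 1554 CPM [1512–1597] and 182 CPM [151–216], 8.56-fold lower [7.18–10.3]. Mrc1, the mannose receptor, stood at 155 and 34.3 CPM (−2.14), the lectins Mgl2 at 55.5 and 8.58 CPM (−2.58) and Clec10a at 91.9 and 27.2 CPM (−1.72), and fibronectin, Fn1, at 1645 and 548 CPM (−1.59). The regulators Egr2 (−1.48) and Irf4 (−1.15) and the chemokine Ccl17 (87 and 1 UMIs) were lower as well. Il4ra, the receptor chain for both cytokines, was at 30.3 and 27.2 CPM (−0.13), and Chil3 was higher (0.60).

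Several of these sums rested on few cells. For Ccl24, 36 chow cells (6.16%) with at least 10 UMIs held 95.5% of the chow UMIs, with 650 in 1 cell, and 4 ketogenic cells (3.39%) reached that count with at most 26. For Retnla, 43 chow cells (7.36%) with at least 10 UMIs held 73.6% of the UMIs, and 1 ketogenic cell held 83 of 127. Without the top cell of each library its log2 ratio was −4.47. The difference in Ccl24 was thus a difference in a minority of cells with many transcripts. Fn1 was spread more evenly, with a median of 6 UMIs per chow cell and 1 per ketogenic cell. With every cell given the same weight the log2 ratio was −2.09 for Retnla and −3.22 for Ccl24. Without members that held lymphoid marker UMIs, Retnla stood at −4.50.

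Retnla was also frequent in cells that should lack it, whereas Ccl24 was not. In cluster 0, Retnla stood at 531 and 97.3 CPM, which is 34.2% and 53.6% of its level in the C1q-low cells, and its log2 ratio there was −2.45. After thinning, 41.8% of chow and 6.78% of ketogenic C1q-low cells had a Retnla UMI, against 39.6% and 5.11% of cluster 0 cells, so the share of cells with a UMI was at background in both libraries. Unthinned, the shares were 89.9% and 27.1% against 74.2% and 15.3%. Ccl24 stood at 26.9 and 1.61 CPM in cluster 0, 1.76% and 1.54% of the level in C1q-low cells, and Mrc1 at 4.20 and 0.229 CPM. With 10% of the UMIs subtracted as free RNA, the log2 ratio was −2.99 for Retnla and −3.84 for Ccl24.

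The list's median was below 0 in other cell groups too. In C1q-high cells 9 of 18 genes were 2-fold lower (all genes 12.1%) with a median of −1.15, in cluster 5 also 9 of 18 (all genes 3.42%) with −0.84, and in cluster 0, 10 of 18 (all genes 4.84%) with −1.19. In cluster 8, 5 of 18 were lower (all genes 13.2%) and 2 higher, with a median of −0.46, and there Ccl24 stood at 102 and 318 CPM and Retnla at 21079 and 28199 CPM, both higher in the ketogenic library. By MHC class II band the medians were −1.44, −1.21 and −0.62 from low to high, with 11 of 17, 9 of 16 and 6 of 17 genes 2-fold lower, against 7.80%, 10.9% and 10.4% of all genes. Ccl24 stood at 3230, 1728 and 64.4 CPM in the chow bands and at 37.2, 304 and 62.3 CPM in the ketogenic bands. Of the ketogenic UMIs, 11 of 13, 26 of 48 and 12 of 12 in these bands came from 1 cell each. Retnla ran the other way under chow, at 623, 1256 and 2500 CPM, and stood at 45.8, 583 and 98.7 CPM under the ketogenic diet. In the ketogenic middle band 83 of 92 UMIs came from 1 cell, and without it the level there was 58.1 CPM [26.6–110].

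The letters TTCNNNNGAA, bound by the IL-4 signal transducer Stat6, were searched in the same windows and are their own reverse complement. They occurred in 6.95% of all windows and in 3 of the 11 windows found for 7 of the 11 lower genes, those of Ccl17, Pdcd1lg2 and Retnla. None of these 11 windows held GAAANNGAAA. The 3 stretches are shown because they belong to IL-4-induced genes that were at least 2-fold lower, with the matching letters in capitals: Retnla at chr16:48842424-48842513 (plus strand, ending 135 bases before the start), Ccl17 at chr8:94810259-94810348 (plus, 144 bases) and Pdcd1lg2, the checkpoint ligand PD-L2, at chr19:29410797-29410886 (plus, 72 bases). Pdcd1lg2 had 21 and 1 UMIs, 4.45-fold lower with an interval of 0.716 to 184 that includes 1, and Ccl17 was 18.4-fold lower [3.23–737]. In cluster 0 Ccl17 was at 16.4 and 3.90 CPM, 62.2% and 273% of its level in the C1q-low cells.
Retnla: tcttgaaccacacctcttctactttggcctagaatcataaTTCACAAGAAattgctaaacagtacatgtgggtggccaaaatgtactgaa
Ccl17: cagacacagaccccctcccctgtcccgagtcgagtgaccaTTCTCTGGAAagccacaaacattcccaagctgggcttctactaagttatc
Pdcd1lg2: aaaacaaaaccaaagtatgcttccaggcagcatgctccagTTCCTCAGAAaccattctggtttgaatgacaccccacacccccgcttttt

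The alarmins S100a8 and S100a9, calcium-binding proteins that neutrophils and early monocytes carry, were among the lowest ratios. S100a9 had 465 UMIs (141 CPM) in the chow cells and 1 UMI (1.43 CPM) in the ketogenic cells, 98.6-fold lower [17.6–3904], and S100a8 had 663 (201 CPM) and 8 (11.4 CPM). The same 7 chow cells held 93.1% of the S100a8 and 94.2% of the S100a9 UMIs, and 0 ketogenic cells reached 10 UMIs of either. The neutrophil marker list, which summed to 392 and 62.9 CPM, includes these 2 genes. They made up most of its chow sum, so the sum restates their difference. Of its other markers, Ly6g and Ngp were at 0 in both libraries and Retnlg at 0 in the ketogenic cells. The part of neutrophils in this difference was not tested. In cluster 0, S100a8 was at 63.5 and 3.90 CPM, a log2 ratio of −3.99 against −4.05 in the C1q-low cells, but 125 of the 151 chow UMIs there came from 1 cell. Of the other genes in the S100 and antimicrobial list, Crip1, a LIM-domain protein, stood at 11059 and 5670 CPM (−0.96), S100a6 at 4177 and 2860 CPM (−0.55), with ratios of −0.82 and −0.35 for these 2 genes in cluster 0, and lysozyme, Lyz2, at 19584 and 22667 CPM (0.21). Over the list 3 of 15 genes were 2-fold lower, 0 higher, with a median of −0.35.

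Among chemokines, which recruit other leukocytes, 7 of 17 (41.2%) were at least 2-fold lower, against 6.80% of all genes, and 3 (17.6%) higher, against 6.51%, with a median of −0.77. The Ccr2 ligands Ccl2 and Ccl7 stood at 1170 and 450 CPM (−1.38) and at 598 and 176 CPM (−1.76). The neutrophil-attracting Cxcl1 stood at 212 and 40.03 CPM (−2.38), Cxcl2 at 4703 and 2101 CPM (−1.16) and Cxcl3 at 68.5 and 10.0 CPM (−2.68), but in cluster 0 Cxcl3 was at 46.7 and 10.3 CPM, 68.1% and 103% of these levels. The abundant Ccl6 stood at 4796 and 2806 CPM (−0.77), with a median of 20 UMIs per chow cell and 12.5 per ketogenic cell, and Ccl9 was at −0.36. Higher were Cxcl16 (60.3 and 126 CPM, 1.06), the ligand of Cxcr6, Cxcl9 and the single-cell-driven Ccl12, while Ccl5, a T cell attractant that lymphocytes also make, stood at 300.2 and 588 CPM (0.97). In cluster 0 the median of this list was −0.87, close to that of the C1q-low cells.

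Of 26 chemokine, growth factor and cytokine receptors 1 was 2-fold higher (Ifngr2), a share near that of all genes, 0 were lower and the median was 0.25. Ccr2 itself had a log2 ratio of 0.05, Csf1r, the receptor for the monocyte growth factor M-CSF, one of 0.24, Ifnar2, a chain of the type I interferon receptor, one of 0.76, and Tnfrsf1a, a receptor for tumour necrosis factor, one of 0.82. Among inflammatory cytokine and NF-kB genes 3 of 24 were 2-fold lower, Il6 (−1.56), the inhibitor Nfkbiz (−1.16) and Tnf (−1.03), and 0 were higher, where 6.80% of all genes were lower. Il1b, the most abundant cytokine of the list, stood at 2719 and 3309 CPM (0.28). The NLRP3 inflammasome list had 1 of 12 genes 2-fold higher (8.33%, all genes 6.51%), Casp1 (1.06), with Nlrp3 itself at −0.34.

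Identity transcripts of classical monocytes were on the higher side in the ketogenic cells. Of the list's 20 genes 18 lay above 0, as did 55.4% of all genes, 3 were at least 2-fold higher (Ms4a4c, Ms4a6c and Gm9733) and 1 lower (Fn1), with a median of 0.62. Plac8 stood 0.83, Ly6c2 0.79, Hp 0.75 and Chil3 0.60 above chow on the log2 scale, and Ccr2 0.05. Within the low, middle and high MHC class II bands the list's medians were 0.20, 0.49 and 0.54, and with the bands weighted equally the median was 0.23, smaller than over all cells, and the low band held a larger share of the ketogenic cells. Without cells that held lymphoid marker UMIs the median was 0.27. Ly6c2 was also higher under the ketogenic diet in C1q-high cells (166 and 728 CPM) and outside cluster 3 (519 and 842 CPM). In C1q-high cells 8 of the 20 list genes were 2-fold higher (all genes 12.7%) and 3 lower (all genes 12.1%), with a median of 0.27. Cluster 5 had 1 of 17 higher and 4 lower, with a median of −0.40. In the C1q-low cells the nonclassical list had 3 of 16 genes 2-fold higher and 1 lower, with a median of 0.39. Treml4 stood at 16.1 and 38.6 CPM (1.28), Ear2, an eosinophil-associated ribonuclease, at 238 and 199 CPM (−0.26), Nr4a1, the nuclear receptor that patrolling monocytes need, at 595 and 413 CPM (−0.52), and Cd36, a fatty acid and lipoprotein scavenger, at 191 and 57.2 CPM (−1.73). Fabp4, a fatty acid carrier that adipocytes also make, stood at 46.1 and 114 CPM, but 66.3% of its ketogenic UMIs came from 1 cell. All 6 measured Ly6 genes were above 0, with a median of 0.89, and reads of these near-identical neighbours could be split uncertainly.

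Antigen presentation split by class. The MHC class II list held 14 genes, among them the costimulatory ligands Cd86 and Cd40. Of the 14 genes 4 lay above 0 and 10 below, where 55.4% of all genes lay above. None differed 2-fold, and the median was −0.43. Within the low, middle and high bands, which MHC class II transcripts defined, the medians were −0.21, −0.06 and 0.04. Cd74, the invariant chain, stood at 17981 and 13631 CPM, and H2-Ab1 and H2-Aa, which encode the chains of I-A, at 6345 and 4110 CPM and at 5608 and 4044 CPM. Of 17 MHC class I genes 15 lay above 0, against the same 55.4%, with a median of 0.38. B2m, the shared light chain, stood at 3814 and 4952 CPM (0.38), the transporter Tap1 at 50.6 and 88.6 CPM (0.81), and H2-T22, a nonclassical class I gene, at 36.7 and 111 CPM (1.61). Cd86 and Cd40, both among the MHC class II list's genes above 0, stood at 0.68 and 0.67. In cluster 0, 7 of 12 genes of the MHC class II list were 2-fold lower (58.3%, all genes 4.84%), with a median of −1.03.

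In the lipid-associated macrophage list 2 of 19 genes were 2-fold higher and 2 lower, with a median of 0.09, and Trem2, its receptor, stood at 65.2 and 68.6 CPM. Spp1, osteopontin, was higher (1.13), with 71.1% of its ketogenic UMIs in 1 cell. In the resident macrophage list 1 of 16 was 2-fold higher and 5 (31.3%) were lower, against 6.80% of all genes, among them Mrc1 and the platelet factor Pf4 (−2.11), with a median of −0.26 that became −0.11 when Cd163, with 15 and 0 UMIs, was set to its bound of 3 counts. In cluster 0, 7 of the 11 measured genes of that list were 2-fold lower (63.6%, all genes 4.84%), with a median of −1.55. Apoe, which belongs to the resident macrophage and cholesterol lists, stood at 2645 and 3978 CPM (0.59), and in the high MHC class II band at 3016 and 6510 CPM. The cholesterol list included the efflux transporter Abcg1 (1.01), with 1 of 17 2-fold higher and a median of −0.05.

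A ketogenic diet supplies fat and raises ketone bodies, and genes of fuel use were described for that reason. Ketone body metabolism had 7 measured genes with a median of 0.14, and 1 was 2-fold higher, Slc16a3 (74.0 and 157 CPM, 1.09), a lactate and monocarboxylate exporter. Oxct1, the enzyme that commits ketone bodies to oxidation, stood at 30.02 and 28.6 CPM (−0.04), and the ketone body receptor Hcar2 had 60 and 9 UMIs (−0.43). Fatty acid oxidation had a median of −0.09 over 24 genes, with 0 of them 2-fold higher and 2 lower, Angptl4, with 27 and 2 UMIs, and Acot1, with 70 and 0 UMIs and near-identical neighbours. Glycolysis and hypoxia had a median of 0.26 over 20 genes, with the glucose transporter Slc2a1 at 12.4 and 35.7 CPM (1.53) and pyruvate kinase, Pkm, at 364 and 715 CPM (0.97). Over all C1q-low cells every other gene of these 3 lists with at least 10 UMIs was within 2-fold of chow. By band, 4 of 19 glycolysis genes (21.1%, all genes 6.91%) were 2-fold higher in the low band, and 6 of 19 fatty acid oxidation genes (31.6%, all genes 10.9%) were 2-fold lower in the middle band.

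Adhesion and surface genes differed one by one. Cd44, the hyaluronan receptor, stood at 1211 and 535 CPM (−1.18), while Coro1a (0.55) and the integrin chain Itgb2 (0.35) were above chow, for a median of 0.38 over 18 genes. Cd44 was at 228 and 115 CPM (−0.98) in cluster 0. Among Fc, scavenger and pattern receptors 3 of 22 were 2-fold higher, Clec4n (93.7 and 244 CPM), which encodes Dectin-2, the scavenger receptor Msr1 (92.8 and 239 CPM) and the inhibitory lectin Clec12a (148 and 300.2 CPM), and 1 was lower, Cd36. In the matrix and coagulation list 6 of 18 genes (33.3%, all genes 6.80%) were 2-fold lower, among them Fn1, Ecm1 (−1.86) and Mmp19 (−1.21), and 2 were higher, for a median of −0.08. In cluster 0, 6 of the 10 measured genes of that list were also 2-fold lower, with a median of −1.37. Ecm1 stood there at 35.3 and 28.2 CPM, 33.3% and 98.7% of its level in the C1q-low cells. Tgfbi, a secreted matrix protein of monocytes, stood at 317 and 568 CPM (0.84).

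Transcription factors and stress genes showed few differences of 2-fold. Irf8, which is needed for monocyte and dendritic cell development, stood at 51.2 and 119 CPM (1.22), and Batf3 (144 and 58.6 CPM, −1.28) and Irf4 were lower, while Cebpb was at 0.31 and the monocyte factor Klf2 at −0.44. Over 23 factors the median was −0.14. Of 22 immediate early and dissociation genes, which can be induced while tissue is digested, 2 were 2-fold lower, Egr1 (347 and 57.2 CPM) and Hspa1b, with a median of −0.13. Egr1 stood at 243 and 148 CPM in cluster 0. The cell cycle list had a median of 0.01 over 12 genes, with Mki67 at 18 and 0 UMIs, and the iron and metallothionein list one of 0.13 over 11, with Mt2 at 60.3 and 11.4 CPM (−2.32), Mt1 at 774 and 409 CPM (−0.92) and Hpgd, a prostaglandin-degrading enzyme, at 48.8 and 139 CPM (1.51).

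**Figure D5:**
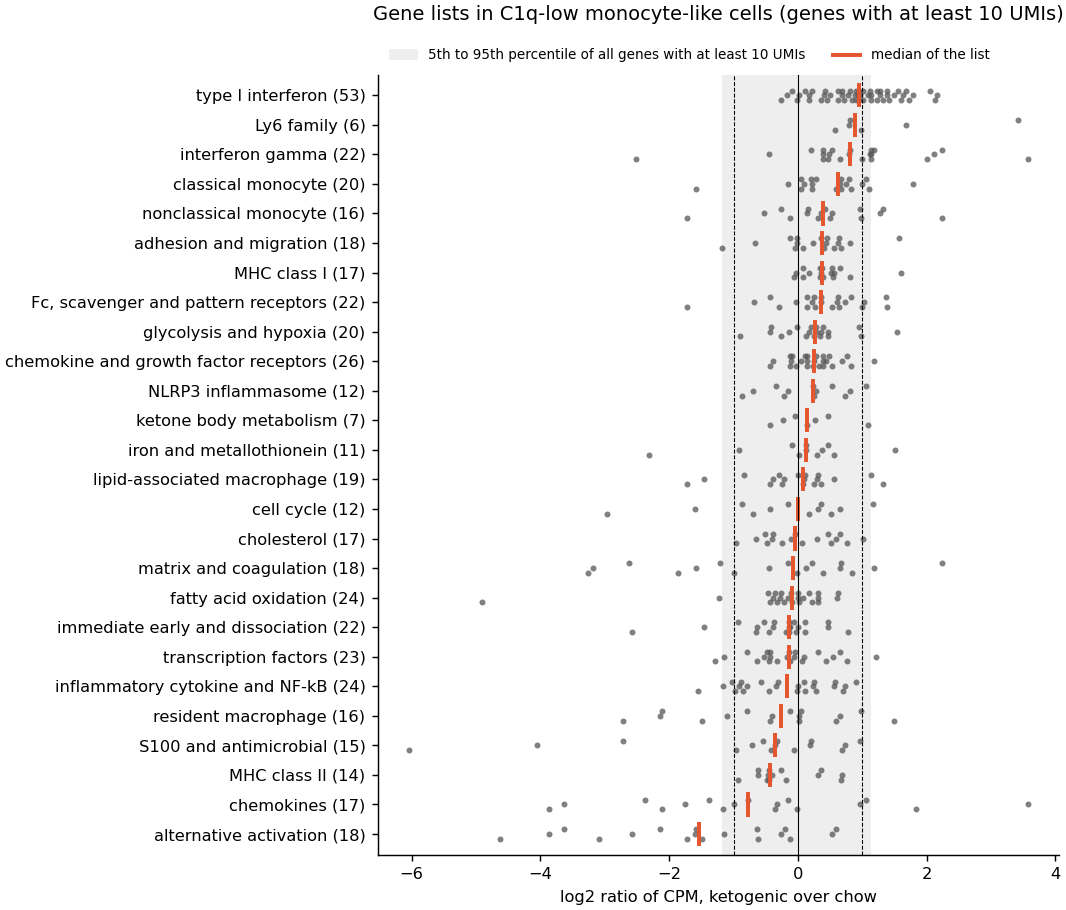
Log2 ratio of CPM, ketogenic over chow, in C1q-low cells for every gene with at least 10 UMIs in 26 lists (rows, number of genes in brackets), with each list's median as a red bar, dashed lines at a 2-fold difference and a grey band over the central 90% of all genes, from −1.17 to 1.11. The type I interferon median of 0.95 is the highest of the 26 and the alternative activation median of −1.54 the lowest, while the band, drawn from single genes, is no yardstick for medians.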

How the data were processed

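Raw UMI counts per gene and cell of both libraries were used as deposited by the authors. The submitters' processing notes name Cell Ranger, Seurat and mm10; versions, aligner settings and filters are not given in the sources used here. Cell clusters came from the authors' deposited cluster table (whole cluster numbers at resolution 0.5), which lacked 142 cells, the ones with over 5% mitochondrial UMIs. Cells were summed per library, and with 1 library per diet no test was run. Log2 ratios used CPM with a pseudocount of 0.5 added to each count, over genes with at least 100 UMIs, or 10 within lists, and a 2-fold difference was the threshold. Contrasts between cell groups used CPM plus 20. Shares were thinned to 1000 UMIs per cell.

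Named genes were the 10 highest and 10 lowest ratios (leaving out C1q, mitochondrial, immunoglobulin and T cell receptor genes), the 10 leading genes of each contrast between cell groups, and up to 6 per list by UMIs or ratio. Some other list genes, such as the targets whose promoters are shown, were named after their values were seen. Some genes that the rule names are not reported here. The cells and the 26 gene lists were chosen with earlier results of these data known. Scrublet called 6 chow and 2 ketogenic cells (0.132% and 0.0356%), too few to have worked, so doublets were not removed, and leaving out cells with lymphoid marker UMIs served as an alternative. Positions came from GENCODE M21 (28339 of 28692 gene IDs matched) and promoters from RefSeq GRCm38.p6. Scripts were tested on simulated data and used python 3.11.15, numpy 2.4.6, scipy 1.17.1, pandas 2.3.3, scanpy 1.11.5 and matplotlib 3.10.9. Alternatives changed the C1q threshold, the denominator, minimum UMIs per cell or gene, the pseudocount, scaling, cell weights, free RNA and the cells left out.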

Additional observations from a re-analysis of the deposited data

Results flagged for a closer look

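For 3 genes the diet difference went one way in the C1q-low cells and the other way in the C1q-high cells of the same cluster, by at least 2-fold in each. They were among 3574 genes with at least 100 UMIs in the C1q-low and 50 in the C1q-high cells (0.0839%), of which 78 differed 2-fold in both, 75 of them in the same direction. The difference between the 2 cell groups was not tested, and the C1q-high cells of the ketogenic library number 27. Gatm, which makes the creatine precursor guanidinoacetate, stood at 40.6 CPM under chow and 18.6 CPM in the ketogenic C1q-low cells, a log2 ratio of −1.08, and at 30.3 and 72.3 CPM (1.29) in the C1q-high cells. The tetraspanin Cd81 stood at 51.2 and 17.2 CPM in the C1q-low cells (−1.52) and at 113 and 253 CPM in the C1q-high cells (1.18). Vill, a villin-like actin-binding protein, stood at 23.3 and 48.6 CPM (1.07) in the C1q-low cells. In the C1q-high cells it had 62 and 2 UMIs (−1.44), with an interval of the ratio from 0.0352 to 1.12 that includes 1. A signal of monocyte transcripts also lay in cells that the comparisons did not use: of 87 chow cells outside the cluster table, 7 (8.05% [3.30–15.9]) held both a Chil3 and a Plac8 UMI, against 0 of 55 ketogenic cells, with an interval up to 6.49%. Among clustered cells the shares were 6.51% and 1.24%, with fewer than 5 C1q UMIs as a further condition. Both lie inside these intervals.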

How the results depend on the processing

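No paired analysis was possible because each diet had 1 library and no replicate numbers. The share ratio of the C1q-low cells stayed between 0.140 and 0.192 under the other C1q thresholds, cell filters and the cluster-free count, was 0.409 among clusters 3, 5, 6, 8 and 12, and reversed to 1.28 among clusters 3 and 8; the denominators differ by construction. The counts of genes at least 2-fold higher and lower were 160 and 191 among 5780 genes with a minimum of 50 UMIs. They were 43 and 41 among 2325 genes with 200, and 1840 and 953 among 13467 genes with no filter. With no filter the counts rose by more than the number of genes did. Without each gene's top cell in each library they were 55 and 130. Among genes past 2-fold, 46.5% were higher as reported, 65.9% with no filter, 37.2% after scaling by the median gene, 38.8% without cells that held lymphoid marker UMIs, 37.9% with every cell weighted alike 40% with the bands weighted alike and 29.7% without each gene's top cell in each library. The type I interferon share was 24.5% with every cell weighted alike, and the cause was not tested. The resident macrophage median reversed to 0.011 under both stricter filters on list genes, with fewer genes measured, and Ccl12 reversed to −0.24 without its ketogenic top cell. Of the other values for lists, 427 were the same and 13 moved, and for named genes 297 and 22. A list median counted as the same within a fixed distance of its reported value, and a named gene's ratio within its counting interval. Some alternatives, such as scaling by the median gene or leaving out the 1 C1q-low cell that Scrublet called, could move few values. These counts are therefore no measure of robustness. The selections by no C1q UMI, by MHC class II band, by Chil3 and Plac8 and by top cell in each library were chosen after seeing the data. The 118 ketogenic cells limit every per-cell share, and fewer cells cannot be told apart from cells lost in preparation.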
